A study of Mus musculus with 12 samples.

Results

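Anxa2, S100a10, Ahnak, S100a11, S100a6, S100a4, Vim, Lgals1 and Crip1 are 9 genes of calcium-dependent membrane scaffolds and the cytoskeleton that are often found together among the transcripts of memory lymphocytes. They were taken by name. Anxa2 was chosen by its measured rise in memory B cells (MemB) over B2 cells, so values of that comparison are given as a description and without a test for these genes. All 9 were found among the 56941 genes of the count table, and all 9 were among the 15148 genes with enough counts to be tested.

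Annexins are cytosolic proteins that bind acidic phospholipids on the inner face of membranes when calcium rises. Annexin A2, the product of Anxa2, forms a complex with S100A10, an S100 protein that no longer needs calcium, and the giant scaffold protein AHNAK binds that complex beneath the plasma membrane, where it takes part in membrane repair, exocytosis and the capture of plasminogen. The remaining genes encode calcium-sensing S100 proteins, the intermediate filament protein vimentin, the lectin galectin-1 and a small LIM-domain protein, and several of them are known to be higher in antigen-experienced than in naive lymphocytes.

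RNAseq was performed on B cells sorted from the peritoneal cavity (PerC) of adult mice, with 3 biological replicates in each of 4 groups and 12 libraries in all. B2 cells were sorted as positive for both IgD and IgM, and MemB as negative for both. The KI mice (Cd21Cre R26 LSL-Gpr34Q340X-IRES-GFP) express a truncated gain-of-function GPR34, a receptor for lysophosphatidylserine, together with GFP after recombination by Cd21-Cre, which is active in mature B cells and also in follicular dendritic cells. Whether the controls carried Cre was not given in the sources used here. The labels name no sort on GFP, and the share of recombined cells in the KI groups was not measured here.

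Libraries held between 29895068 and 39732124 counts, with 29.3% to 38.3% of them from ribosomal RNA genes. The sort gates were visible in the counts. Ighd, the IgD heavy chain, was at 1297 to 1694 counts scaled to library size (CPM, TMM-scaled) in B2 and at 66.4 to 251.3 CPM in MemB, while Ighm remained at 2014 to 2688 CPM in control MemB against 4072 to 4341 CPM in control B2. KI MemB held less of both than control MemB, with Ighm at 297.4 to 566.4 CPM (log2 fold change -2.46, SE 0.17, edgeR adjusted p = 4.81e-11) and Ighd at 66.4 to 101.4 against 208.9 to 251.3 CPM (-1.35, SE 0.18, adjusted p = 9.39e-05). A gene was called at an edgeR adjusted p below 0.05 and more than 1 log2 unit of change in either direction. Of 10 memory B cell markers, 5 were called higher in MemB than in B2 and 0 lower, beside 1.01% of all genes called in either direction. Of 7 B-1 cell markers, which share Bhlhe41 and Zbtb32 with that list, 3 were called higher, and their summed level was 516.0 to 765.5 CPM in MemB against 148.7 to 253.4 CPM in B2. The third replicate of every group came from the other sex than the first and second by its Xist level. Mast cell markers stood out in KI B2 replicate 3 (Mcpt4 24.1 CPM and Kit 10.2 CPM), in control MemB replicate 3 (Cma1 118.5 CPM) and, for Cma1 and Cpa3, in control MemB replicate 1, and Kit was below 0.5 CPM in every other library.

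The genes lie on 6 chromosomes of GRCm39, all on the plus strand, and 4 of them lie as close pairs on chromosome 3. S100a4 (chr3:90511074-90513354) and S100a6 (chr3:90520140-90535843) are 6.79 kb apart with S100a5 between them, and S100a11 (chr3:93414382-93435293) and S100a10 (chr3:93462213-93474510) are 26.9 kb apart, on the far side of a gap of 2.88 Mb. Anxa2 lies at chr9:69360542-69399077, Vim at chr2:13578738-13587639, Lgals1 at chr15:78810875-78814670 and Ahnak at chr19:8966311-9055220. Crip1 (chr12:113109936-113117503) lies 101.0 kb from Igha, the IgA heavy chain constant gene, with 2 protein-coding genes between them.

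The 100 bases before the start of the canonical transcript, which for Anxa2 and S100a11 lies inside the gene span given above, are shown for 4 of the 5 genes whose 6 B2 libraries all lay below their 6 MemB libraries (values below), to let their start regions be compared. Capitals mark a match to the AP-1 motif TGANTCA. The windows lie on the plus strand at chr9:69360802-69360901 for Anxa2, chr3:93462113-93462212 for S100a10, chr3:93427577-93427676 for S100a11 and chr19:8966211-8966310 for Ahnak.
Anxa2: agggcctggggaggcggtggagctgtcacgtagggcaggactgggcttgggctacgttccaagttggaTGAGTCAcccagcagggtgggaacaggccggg
S100a10: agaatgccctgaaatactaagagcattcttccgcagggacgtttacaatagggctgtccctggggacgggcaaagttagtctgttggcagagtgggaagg
S100a11: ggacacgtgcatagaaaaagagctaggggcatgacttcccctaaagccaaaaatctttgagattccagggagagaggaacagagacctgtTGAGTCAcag
Ahnak: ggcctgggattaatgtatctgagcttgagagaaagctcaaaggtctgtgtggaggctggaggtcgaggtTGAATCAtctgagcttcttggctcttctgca

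Motifs were searched on both strands from 250 bases before to 50 bases after the start of each gene's canonical transcript. The AP-1 motif TGANTCA was found in Anxa2, S100a11 and Ahnak, which is 3 of 9, and in 7.15% of all 21757 protein-coding promoters of the same length. The matches began 32, 10 and 31 bases before the start, respectively, and the match in Anxa2 shares 2 bases with a match to the KLF motif CACCC. That motif was found in 5 of 9 and in 58.7% of promoters, the SP motif GGGCGG in 2 of 9 and in 42.5%, and the SRF CArG box in 0 of 9 and in 1.54%. These are matches of letters and no measurement of binding.

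Anxa2 had the largest difference between the cell types. It was measured at 37.1, 24.75 and 43.0 CPM in control B2, and at 68.6, 48.4 and 95.5 CPM in KI B2. In MemB it was measured at 174.1, 300.2 and 250.1 CPM in controls and at 254.7, 190.1 and 204.3 CPM in KI. Every MemB library was thus above every B2 library, and the log2 fold change over both genotypes was 2.20 (SE 0.22), a 4.59-fold difference.

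S100a10, which encodes the partner of annexin A2, followed with smaller differences. It was measured at 88.8, 127.8 and 123.1 CPM in control B2 and at 105.3, 103.0 and 137.5 CPM in KI B2. In MemB it was measured at 174.9, 217.6 and 303.3 CPM in controls and at 349.1, 292.2 and 249.4 CPM in KI. The log2 fold change of MemB against B2 was 1.20 (SE 0.19), again without overlap between the cell types. Because Anxa2 differed more than S100a10, the ratio of S100a10 to Anxa2, each per kb of canonical transcript, was 1.01 to 2.19 in control B2, 0.609 to 0.902 in KI B2, 0.517 to 0.650 in KI MemB and 0.307 to 0.513 in control MemB.

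**Figure D1:**
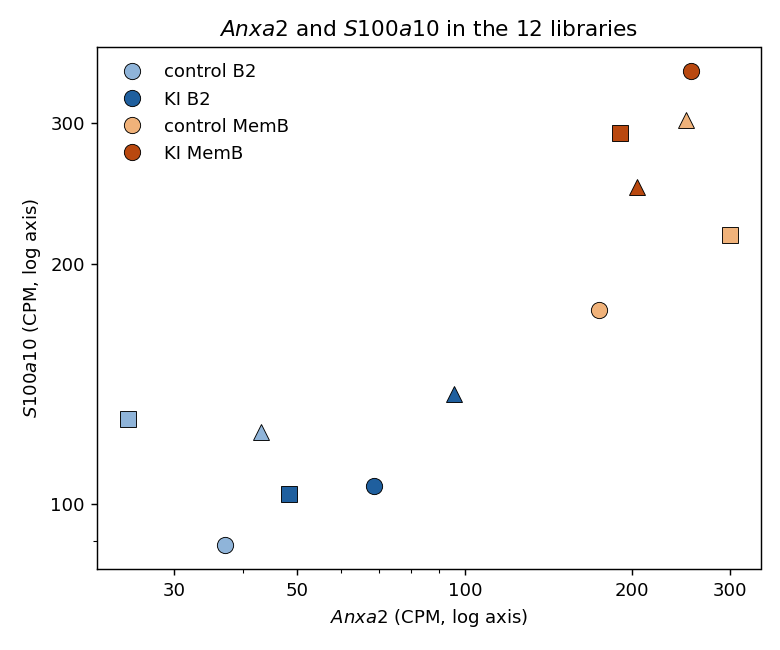
Anxa2 level (horizontal, CPM, log axis) against S100a10 level (vertical, CPM, log axis) in the 12 libraries, coloured by group, with circles, squares and triangles for replicates 1, 2 and 3. All 6 MemB libraries lie to the upper right, at 174.1 to 300.2 CPM of Anxa2, and the KI B2 libraries lie to the right of the control B2 libraries at like levels of S100a10.

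Ahnak, the scaffold that binds both partners, differed little between the cell types. It was measured at 3418, 4893 and 4228 CPM in control B2, 5289, 4300 and 4297 CPM in KI B2, 6252, 6547 and 5412 CPM in control MemB and 6120, 6537 and 6245 CPM in KI MemB. The cell types did not overlap, although the highest B2 library was within a few percent of the lowest MemB library, and the log2 fold change was 0.49 (SE 0.09).

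The S100 genes beside S100a10 divided. S100a11, whose product binds annexin A1, was measured at 230.8 to 290.5 CPM in B2 and at 313.7 to 709.5 CPM in MemB, a log2 fold change of 0.91 (SE 0.16). S100a6 (calcyclin) was measured at 290.7 to 524.9 CPM in B2 and at 302 to 615.4 CPM in MemB, with a log2 fold change of 0.21 (SE 0.15). S100a4, known for its binding to non-muscle myosin, was measured at 31.4 to 53.6 CPM in B2 and at 13 to 74.7 CPM in MemB, with a log2 fold change of -0.04 (SE 0.38). The cell types overlapped for S100a6 and S100a4, and the neighbouring pair S100a11 and S100a10 was without overlap.

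Among the others, Lgals1 and Crip1 were higher in MemB and Vim was at like levels. Lgals1, encoding galectin-1, a lectin for beta-galactosides, was measured at 22.5, 35.4 and 26.8 CPM in control B2, 28, 17.4 and 57.2 CPM in KI B2, 78.2, 59.7 and 93.1 CPM in control MemB and 151.1, 110.8 and 53.6 CPM in KI MemB. Its log2 fold change was 1.53 (SE 0.32), and 1 KI MemB library lay below 1 KI B2 library, KI B2 replicate 3, which is the B2 library with the mast cell markers. Without that library the log2 fold change of Lgals1 was 1.83. Mast cell markers also stood out in control MemB replicates 3 and 1, and without each of these it was 1.46 and 1.53, respectively. Crip1, encoding a small zinc-binding LIM protein, was measured at 609.8 to 906 CPM in B2 and at 939.8 to 1516 CPM in MemB, a log2 fold change of 0.63 (SE 0.13). Vim was measured at 1028 to 1637 CPM in B2 and at 1087 to 1884 CPM in MemB, and its log2 fold change was 0.13 (SE 0.12).

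**Figure D2:**
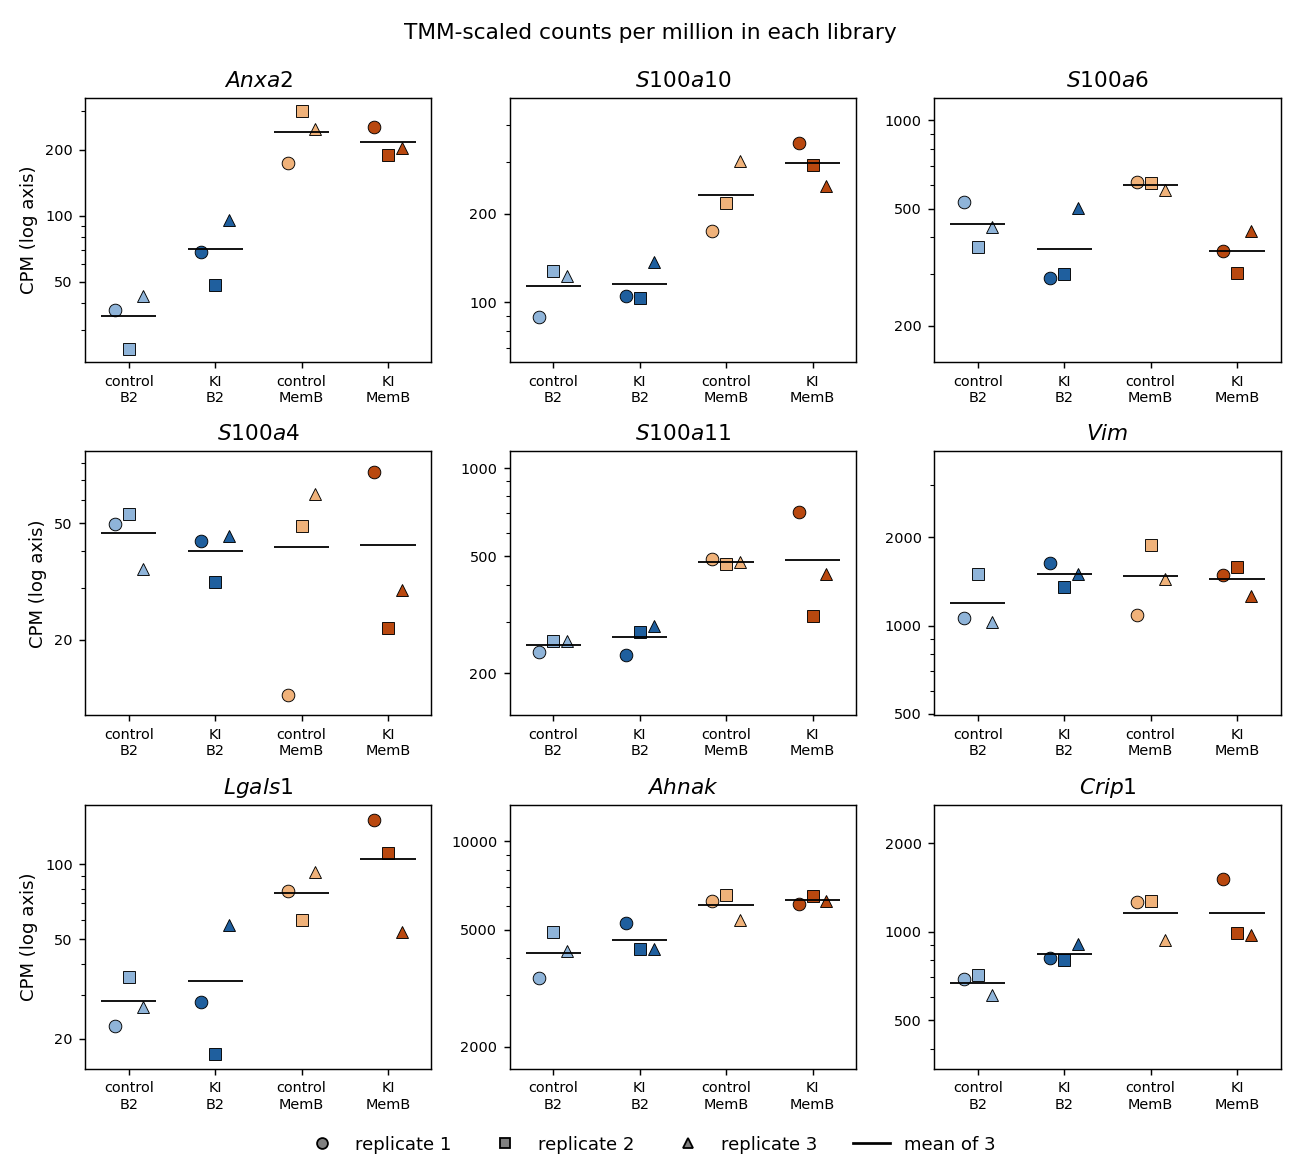
Level of each gene (vertical, TMM-scaled CPM, log axis) in each library of the 4 groups, with circles, squares and triangles for replicates 1, 2 and 3 and a bar for the mean of 3. Anxa2, S100a10, S100a11, Ahnak and Crip1 have all MemB libraries above all B2 libraries, and S100a4 ranges from 13 to 62.9 CPM within control MemB alone.

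The libraries of MemB and B2 did not overlap for 5 of 9, and for 1.26% of all genes. Within genotypes they did not overlap for 7 of 9 in controls (12.3% of all genes) and for 5 of 9 in KI (14.8% of all genes), the 7 in controls including S100a6 and Lgals1. The median log2 fold change of the 9 was 0.63, beside 0.02 over all genes. Since Anxa2 was picked on this comparison and the rest were named with it, nothing is read from these shares. In bulk libraries, more cells that contain a transcript and more of it per cell cannot be told apart.

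By genotype, the MemB to B2 difference in Anxa2 was 2.79 (SE 0.32) on the log2 scale in controls and 1.61 (SE 0.31) in KI. Those of S100a10 were 1.03 and 1.36, of Lgals1 1.45 and 1.62, of S100a11 0.94 and 0.87, and of Ahnak 0.54 and 0.44, in the same order. S100a6 was at 0.44 (SE 0.21) in controls and at -0.02 (SE 0.21) in KI. The summed level of B-1 cell markers was higher in MemB as well, as given above, and its part in these differences was not tested. The defining neutrophil transcripts S100a8 and S100a9 were at 0 in the table, the summed level of 7 neutrophil markers was at most 2.01 CPM (KI B2 replicate 1), and the summed level of 11 mesothelial and fibroblast markers was at most 0.134 CPM in any library. Mast cell markers summed to 45.0, 1.53 and 242.1 CPM in control MemB, and T and NK cell markers to 115.3 to 187.1 CPM in control MemB, 40.6 to 66.8 CPM in control B2, 16.2 to 50.3 CPM in KI MemB and 28.8 to 66.2 CPM in KI B2. Their part in these differences was not tested. Macrophage markers summed to between 14.6 and 69.2 CPM in MemB and between 31.3 and 51.4 CPM in B2, with Cd14, Fcgr1 and Gata6 at 0.

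**Figure D3:**
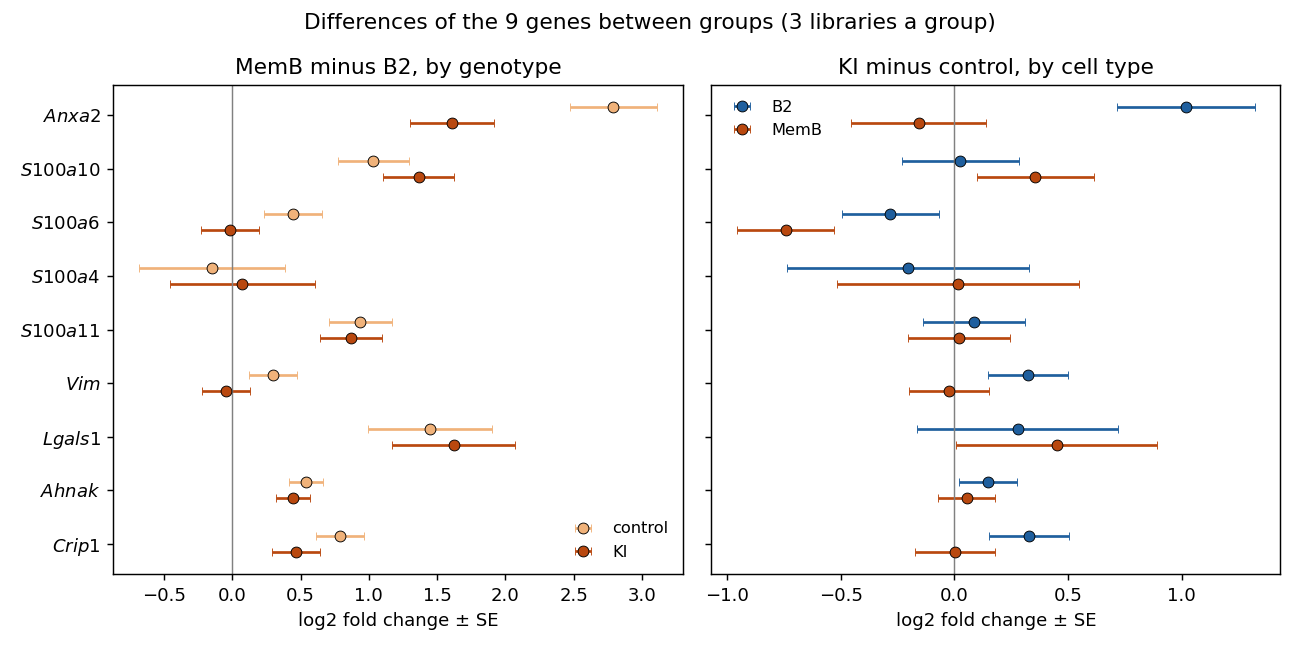
Log2 fold change (horizontal, with bars of 1 SE) of each gene between MemB and B2 in each genotype (left) and between KI and control in each cell type (right), from 3 libraries a group. On the left Anxa2 is at 2.79 in controls and 1.61 in KI, and on the right its KI difference is at 1.02 in B2 and -0.16 in MemB.

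The comparison of KI with control in MemB asked whether GPR34 gain of function altered these genes in memory B cells. Of the 9, 0 were called by edgeR, beside 0.284% of all genes, and 0 by DESeq2, beside 786 of the 56941 genes in the table. At an unadjusted p below 0.05 there was 1 of 9, S100a6, beside 11.1% of all genes, and the groups did not overlap for 1 of 9, also S100a6, beside 12.1%. S100a6 was measured at 615.4, 612.1 and 580.5 CPM in control MemB and at 359.9, 302 and 418.4 CPM in KI MemB. All 3 KI libraries were below all 3 controls, with a log2 fold change of -0.74 (SE 0.21), but the difference did not pass the test (edgeR adjusted p = 0.197, and 0.129 to 0.412 over the alternatives). The KI MemB libraries lay within the range of the B2 libraries, 290.7 to 524.9 CPM.

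Markers of T and NK cells were lower in KI than in control MemB, as S100a6 was, but did not follow S100a6 from library to library. From replicate 1 to replicate 2 they rose from 147.6 to 187.1 CPM in control MemB, where S100a6 went from 615.4 to 612.1 CPM. In KI MemB they rose from 16.2 to 31.65 CPM, and S100a6 fell from 359.9 to 302 CPM. The summed level of 11 such markers was 115.3 to 187.1 CPM in control MemB, 16.2 to 50.3 CPM in KI MemB and 28.8 to 66.8 CPM in B2. All 10 tested were lower in KI than in control MemB by their fold change, and 1 of them, Nkg7, was called lower. None of the 11 was at 0 in all libraries. Ighm and Ighd were lower in KI MemB too, as given above, and B-1 cell markers summed to 662.6 to 765.5 CPM in control MemB and 516.0 to 616.3 CPM in KI MemB, with 0 of 7 called. The mast cell marker Cma1 was called lower in KI MemB (log2 fold change -6.40, SE 1.41, edgeR adjusted p = 0.0374). The groups overlapped, with Cma1 at 36.57, 0.79 and 118.5 CPM in control MemB and at 0.39 to 0.80 CPM in KI MemB. The part of the T and NK cell, B-1 cell, mast cell and immunoglobulin transcripts in the S100a6 difference was not tested.

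The other 8 genes gave values between -0.16 and 0.45 for KI against control in MemB. Anxa2 was at -0.16, with an interval of 2 SE from -0.76 to 0.44, and S100a10 at 0.36 (-0.16 to 0.87). For Ahnak the interval was narrow, from -0.20 to 0.31, and for S100a4 it was wide, from -1.05 to 1.08. S100a11 was at 471.9 to 490.2 CPM in the control MemB libraries and at 709.5, 313.7 and 434.9 CPM in KI MemB, so that the controls lay inside the range of the KI libraries. Jchain, a plasma cell marker, rose in KI MemB (log2 fold change 3.80, SE 0.68, edgeR adjusted p = 0.00495). It was the 1 of 8 plasma cell markers called, and the 8 summed to 401.9 to 641.5 CPM in control MemB and 453.2 to 580.4 CPM in KI MemB. Of the 8, 5 had positive log2 fold changes (48.4% of all genes), and the median of these markers was 1.93. The median over the 9 was 0.02, beside -0.03 over all genes.

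In B2, the same comparison called 0 of 9 with edgeR (0.0066% of all genes). DESeq2 called 0 of 9, beside 202 of the 56941 genes in the table. Anxa2 was the 1 of 9 at an unadjusted p below 0.05 (5.74% of all genes), and the groups did not overlap for 2 of 9, Anxa2 and Crip1 (10.2%). Anxa2 was at 34.9 ± 9.3 CPM (SD, n = 3) in control B2 and at 70.8 ± 23.7 CPM (SD, n = 3) in KI B2. All 3 KI libraries were above all 3 controls, with a log2 fold change of 1.02 (SE 0.30), which did not pass the test (edgeR adjusted p = 0.838, and 0.157 to 1 over the alternatives).

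The highest of these, KI B2 replicate 3, was the library with mast cell markers, whose summed level was 74.9 CPM there and at most 1.75 CPM in control B2. Without it the log2 fold change of Anxa2 was 0.74. In the remaining 2 KI B2 libraries Anxa2 was at 68.6 and 48.4 CPM and Cma1 below 1 CPM, and the highest control B2 library held 43.0 CPM of Anxa2. Ighm was lower in KI B2, at 2906 to 3593 CPM against 4072 to 4341 CPM in control B2. Its log2 fold change was -0.42 (SE 0.16, edgeR adjusted p = 0.838). The summed level of 10 sort markers, Ighm among them, was 7881 to 8950 CPM in KI B2 and 9285 to 9788 CPM in control B2. The part of the mast cell and sort markers in the Anxa2 value was not tested. Crip1 was at 688.4, 711.0 and 609.8 CPM in control B2 and at 816.0, 798.4 and 906.0 CPM in KI B2, a log2 fold change of 0.33 (SE 0.18, edgeR adjusted p = 0.860). Vim was at 0.32 and the other 6 were between -0.28 and 0.28.

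The difference between both KI effects was tested as an interaction, and 0 of 9 were called by edgeR (0.066% of all genes). DESeq2 called 0 of 9, beside 420 of the 56941 genes in the table. Anxa2 was again the 1 of 9 at an unadjusted p below 0.05 (8.49% of all genes), with its KI effect in MemB lower than that in B2 by 1.18 on the log2 scale, written as -1.18 (SE 0.42, edgeR adjusted p = 0.41, and 0.284 to 0.657 over the alternatives). The other 8 were between -0.46 and 0.33. Over the alternatives Lgals1 reached 1.28 and S100a4 1.12, and neither was called.

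Levels were compared between the genes only per kb of canonical transcript. On that length Crip1 was the highest of the 9 in all 4 groups, at 1229 CPM per kb in control B2 and 2131 CPM per kb in KI MemB, and ranked 17 to 34 among 14339 genes with a length. Anxa2 moved from rank 1727 in control B2 to rank 718 in KI B2 and to ranks 235 and 269 in control and KI MemB. Lgals1 moved from rank 1176 in control B2 to rank 321 in KI MemB. These ranks depend on which transcript a gene uses: with the shortest or the longest protein-coding transcript, S100a10 in control MemB was at 272 or 46.2 CPM per kb and Anxa2 at 377 or 127 CPM per kb, and Ahnak in control B2 was at 3570 or 227 CPM per kb against 1490 or 1230 CPM per kb for Crip1. The order of Anxa2 and S100a10, and that of Crip1, Ahnak and Vim, is therefore not settled.

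Over the 12 libraries, the genes outside the 9 with log2 CPM most like that of Anxa2 included Ifi211 (Pearson r = 0.946), Gm6169 (0.922), Glud1 (0.913) and Ighg2b (0.912), the last being the IgG2b heavy chain constant gene. Ifi211 was at 0.65 CPM in B2 and 13.3 CPM in MemB, Ighg2b at 36.7 and 1155 CPM, and Glud1 at 191 and 320.2 CPM. Among the 9, r with Anxa2 was 0.868 for S100a10, 0.855 for Crip1, 0.843 for S100a11, 0.822 for Lgals1, 0.80 for Ahnak, 0.382 for Vim, 0.317 for S100a6 and -0.08 for S100a4. The libraries formed sets by cell type, and these values mostly follow that split. After the group means were taken out, the 36 pairs among the 9 had r between -0.56 and 0.693, with a median of 0.258.

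The wider families were described to show how far the 9 stand with their relatives. Of 11 other annexins, 4 were at 0 in all libraries and 7 were tested. By edgeR, 0 of the 7 were called in MemB against B2 (1.01% of all genes), with 3 at an unadjusted p below 0.05 (12.9% of all genes). In KI against control MemB 0 were called (0.284%), with 2 at an unadjusted p below 0.05 (11.1%). DESeq2 called 1 in each, Anxa9 and Anxa1, beside 825 and 786 of the 56941 genes in the table. Anxa6 had a log2 fold change of 0.72 in MemB (SE 0.17, edgeR adjusted p = 0.0226), below the fold limit, and was at 295.2 to 335.9 CPM in KI MemB and 171.3 to 247.8 CPM in control MemB (log2 fold change 0.61, adjusted p = 0.36). Anxa1 was at 18.7 to 25.3 CPM in KI MemB against 3.37 to 6.02 CPM in control MemB (log2 fold change 2.17, SE 0.78, edgeR adjusted p = 0.325). DESeq2 called Anxa1 higher in KI MemB (adjusted p = 0.0167) and edgeR did not.

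Of 12 other S100 genes, 7 were at 0 in all libraries and only S100a13, at 1.14 to 27.7 CPM in MemB, reached 10 CPM in any library. Of 4 tested galectins other than Lgals1, 0 had a positive log2 fold change in MemB against B2, with Lgals8 at -0.87 and Lgals9 at -0.71 (edgeR adjusted p of 0.155 and 0.344). Ahnak2, the relative of Ahnak, was at 11.3 to 25.6 CPM in B2, 51.8 to 168.5 CPM in control MemB and 3.49 to 102.8 CPM in KI MemB. Only KI MemB replicate 3 was high among the KI libraries, and Ahnak2 was not called (edgeR adjusted p = 0.635 for KI in MemB) unless that library was left out (log2 fold change -4.74, adjusted p = 4.25e-04) or replicates 1 and 2 alone were used.

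**Figure D4:**
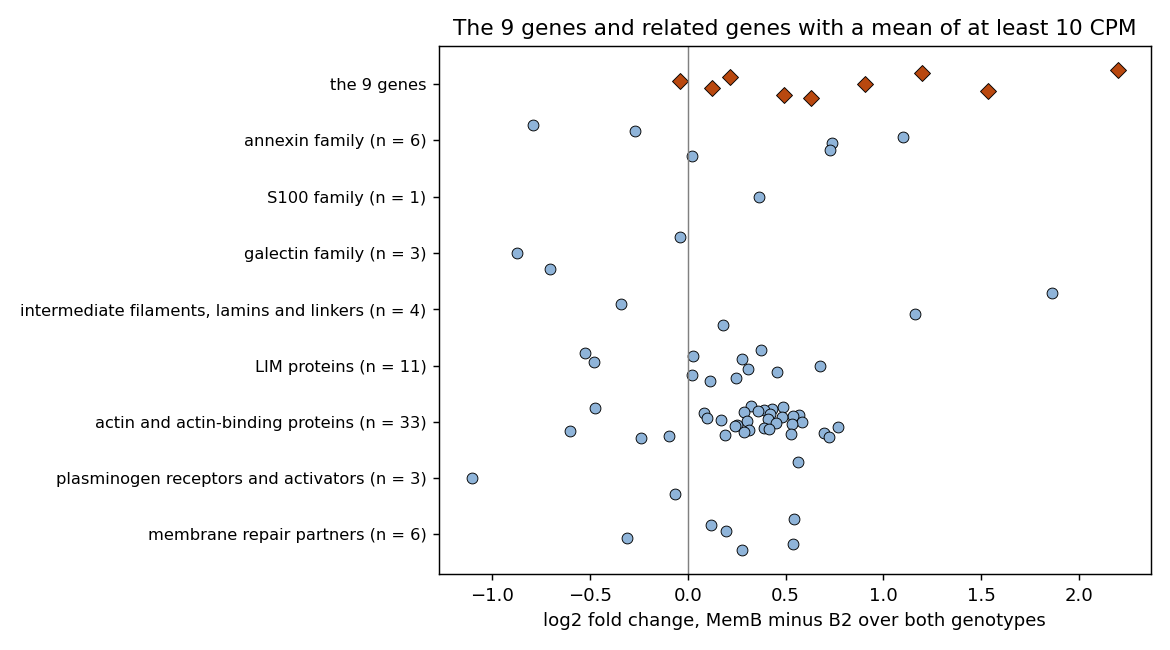
Log2 fold change of MemB over B2 for the 9 genes (diamonds) and for 67 genes of 8 related lists with a mean of at least 10 CPM (circles, 1 row a list, n beside its name). The related genes lie between -1.10 (Plaur) and 1.86 (Ahnak2), and Anxa2 at 2.20 is the point farthest to the right.

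Actin and its binding proteins were the largest of the 8 lists, with 33 genes tested. In MemB against B2, 29 of the 33 had positive values, beside 51.2% of all genes, with a median of 0.39 beside 0.02 over all genes. By edgeR or DESeq2 0 were called, beside 1.01% of all genes in edgeR, and 21 were at an unadjusted p below 0.05 in edgeR, beside 12.9%. Tmsb4x, encoding the actin monomer-binding thymosin beta 4, had an adjusted p of 0.00513 at a log2 fold change of 0.53 (SE 0.11, edgeR). In KI against control MemB, 28 of 33 were positive, beside 48.4% of all genes, with a median of 0.26. By edgeR 0 were called, with 10 at an unadjusted p below 0.05, beside 11.1% of all genes, and DESeq2 called 3. Ezr, encoding ezrin, which links actin to the membrane, was at 311.5 to 408.6 CPM in control MemB and 605.3 to 636.6 CPM in KI MemB. Its log2 fold change was 0.84 (SE 0.19), with an adjusted p of 0.0423 in edgeR and below the fold limit. Over all 8 lists, with 78 genes tested, edgeR called 0 in either comparison, with 38 at an unadjusted p below 0.05 in MemB against B2 (12.9% of all genes) and 16 in KI against control MemB (11.1%). The whole table held 56941 genes, 25757 of them with counts above 0 after rounding. At the same limits DESeq2 called 825 genes in MemB against B2 and 786 in KI against control MemB over the whole table. In MemB against B2 it called 3 of the 78, Anxa9, Csrp2 and Crip3, all lower and at most 5.04 CPM in any B2 library. In KI against control MemB it called 5, with Anxa1, Gsn (gelsolin, which severs actin filaments) and Vasp higher and Actn1 (an actin crosslinker) and Csrp2 lower.

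The counting limits some of these values. S100a11 shares 297 bases at 99% identity with the transcribed pseudogene Gm12854, its counts were not whole in any library, and Gm12854 held 8.21% to 14.7% as many counts as S100a11. The amplified libraries do not mark strand, so reads of Anxa2, Vim, Lgals1 and Ahnak cannot be told apart from those of annotated antisense genes that overlap them. S100a10 shares about 175 bases at 95.4% to 96.0% with 6 unrelated transcripts, of which Dnajc14, Tfcp2 and Ggnbp1 held up to 51.5%, 17.7% and 16.6% as many counts as S100a10 in a library. The counts of S100a10 were whole in all 12 libraries.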

How the data were processed

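The authors trimmed reads with cutadapt 4.5, aligned them to mm39 (GRCm39) with STAR 2.7.11a and deposited gene-level expected counts from RSEM 1.3.3 without normalization, as per the labels and the study's methods; the annotation release was not given in the sources used here. Expected counts were rounded. RSEM shares ambiguous reads between genes, and 32.2% of values above 0 were not whole. CPM are TMM-scaled. The 12 libraries entered a single model of 4 group means in edgeR 4.0.16 (robust quasi-likelihood test, genes kept by filterByExpr with min.count 10, Benjamini-Hochberg adjustment over 15148 genes, R 4.3.3). SEs were obtained from log2 fold changes and their F statistics as |log2 fold change|/√F. DESeq2 1.42.0 was an alternative. The scripts were tested on simulated data.

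All 9 genes were named, with those of the 5 genes most correlated with Anxa2 that are reported here, and from related lists up to 3 called genes in each direction. No list gene was called by edgeR, and Anxa6, Anxa1, S100a13, Ahnak2, Lgals8, Lgals9, Tmsb4x, Ezr, Plaur and those that DESeq2 alone called were named after their values were seen. The genes and lists were chosen with earlier results of these data known. Cfl1, Klrd1 and Tpsb2 did not match a symbol and are not analysed here, and 1 correlated gene and 1 promoter sequence are not reported here. Positions and promoters are from GENCODE M39, and copies were searched with blastn 2.17.0 (identity of at least 95% over at least 100 bases). p-values measure the spread between mice within these groups, and the main model did not pair B2 with MemB libraries. Reads carry no molecular identifiers, and depth covers counting error only.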

Additional observations from a re-analysis of the deposited data

How the results depend on the processing

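Calls of the 9 genes in the comparisons of KI with control (0 in MemB, 0 in B2 and 0 for the difference) were the same under all alternatives run: RLE or library-size scaling, no filter or a minimum count of 50, DESeq2, a non-robust fit, only the groups compared (for the comparisons within MemB and within B2), ribosomal RNA genes left out, replicates 1 and 2 only, and each library left out. Of the related genes, 0 were called in KI against control MemB, but 5 by DESeq2, 1 with replicates 1 and 2 only and 1 without KI MemB replicate 3 (a range of 0 to 1 when a library is left out); in MemB against B2, 0 were called, and 3 by DESeq2. The cause was not tested.

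The labels do not say whether same-numbered libraries share a mouse. Correlations of same-numbered libraries over 7890 genes were 0.0115 to 0.0496. In each pair of groups, every other library correlated best with its own number. The exception was KI B2 replicate 1 against control B2 (0.0115 with replicate 1 and 0.0207 with replicate 2). Values this small cannot decide whether B2 and MemB libraries are paired. With genotype and replicate number as a block, MemB against B2 gave log2 fold changes of 2.22 for Anxa2, 1.19 for S100a10 and 1.59 for Lgals1. The replicate block called 0 of the 9 in each comparison of KI with control and gave S100a6 in MemB -0.77 and Anxa2 in B2 1.01.

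Of the single-gene values under these alternatives, 31 reversed, all of genes not called in that comparison, and 743 were counted as unchanged. In the comparisons of KI with control, unchanged values kept their direction and stayed uncalled. Some of them crossed the fold limit. When a library was left out, Anxa2 fell to 0.74 in B2 and was at -0.90 for the difference. Under other alternatives the difference reached 1.28 for Lgals1 and 1.12 for S100a4. In MemB against B2, unchanged values moved by less than 1 SD without a called value changing sign (S100a4 ran from -0.39 to 0.18 there when a library was left out). Some of these moves exceeded 1 SE. Lgals1 reached 1.90 and Anxa2 2.45 with replicates 1 and 2 only, and S100a11 fell to 0.72 when a library was left out. In KI against control MemB the reversed values were S100a4 (-0.0175 with library size alone, -0.0527 with the replicate block), S100a11 and Crip1 with the replicate block (-0.0096 and -0.0056), and Vim and Ahnak with replicates 1 and 2 only (0.0639 and -0.0015). In B2 they were S100a10 (-0.0416) and Lgals1 (-0.34), and for the difference S100a11 (0.0554), with replicates 1 and 2 only. When a library was left out, values ran from -0.68 to 0.44 for S100a4, -0.34 to 0.0277 for Anxa2, -0.19 to 0.19 for Vim, -0.0206 to 0.11 for Ahnak, -0.23 to 0.12 for Crip1 and -0.35 to 0.26 for S100a11 in MemB; from -0.12 to 0.12 for S100a10 and -0.31 to 0.59 for Lgals1 in B2; and from -0.22 to 0.018 for Ahnak, -0.18 to 0.77 for Lgals1, -0.44 to 0.17 for S100a11 and -0.48 to 0.65 for S100a4 for the difference.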
